A study of Mus musculus with 10 samples.

Results

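The genes described here are 10 members of the Hippo pathway in mouse heart muscle cells: the co-activators Yap1 and Wwtr1, the DNA-binding factors Tead1, Tead3 and Tead4, the target genes Ctgf and Cyr61, and the inhibitors Amotl1, Amotl2 and Lats2. They were taken by gene symbol from a table of 23337 genes, and all 10 were found in it. The members, and the lists of other genes used below, were chosen with earlier results of these data known. Of these, 9 passed the filter on low counts. Tead4 did not, and is given as counts only.

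Cardiomyocytes were released from the heart by collagenase perfusion, sorted by fluorescence and sequenced from mice at postnatal day 14. All mice received, at postnatal day 1, the same adeno-associated virus (AAV9) at 3.6e+08 vector genomes per gram. The virus carries the recombinase Cre under a cardiac troponin T promoter, so that recombination is directed to cardiomyocytes. The 5 knockout mice carry 2 floxed alleles of Actn2 (Actn2 F/F), the gene of the Z-line protein alpha-actinin-2. The 5 heterozygote mice carry 1 floxed and 1 normal allele (Actn2 F/+), so that the controls also received Cre and also carry an allele that Cre can cut. No group without virus was compared. The labels name each sample by genotype and number, and the series text calls the 5 of each group biological replicates.

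The Hippo pathway is a chain of protein kinases that restrains growth. Its upstream kinases, encoded by Stk3 and Stk4, activate the kinases Lats1 and Lats2, which phosphorylate the co-activators YAP (Yap1) and TAZ (Wwtr1) and keep them out of the nucleus. Unphosphorylated YAP and TAZ enter the nucleus and bind TEAD factors, which turn on targets such as Ctgf, Cyr61 and Ankrd1. Angiomotins (Amot, Amotl1, Amotl2) bind YAP and TAZ in the cytoplasm, and several inhibitors, Lats2 and Amotl2 among them, are themselves targets, which closes a feedback loop. In the heart the pathway limits cardiomyocyte proliferation after birth and responds to stretch and to the state of the actin cytoskeleton. Messenger RNA levels do not measure the phosphorylation or the location of YAP and TAZ.

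One of the 9 tested members changed: Ctgf was 2.95-fold higher in knockout cells. The messenger RNA of the co-activators, of Tead1 and of Tead3 did not pass the test in either direction, and neither did Cyr61, the other classical target. Amotl1, Amotl2 and Lats2 were 1.17-fold, 1.19-fold and 1.24-fold of the heterozygote level and did not pass. Around the members, 9 of 32 other Hippo pathway genes rose and 0 fell, with Strn, Frmd6 and Slmap the largest, where 10.2% of all tested genes were called higher. With the mean of 10 endothelial markers as a covariate, 4 of the 32 were called higher. In that fit 515 of all 11870 tested genes were called higher, in place of 1216 without the covariate. The markers were themselves lower in knockouts on average (median log2 fold change -0.43), so the covariate and genotype cannot be fully told apart. Of 16 other YAP target genes 4 rose, with Ankrd1 and Tgfb2 far above the rest.

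RefSeq promoter windows (build GRCm38.p6, the same assembly as mm10) show where the TEAD recognition motif lies in a target that rose and in one that did not pass the test. The motif was searched as GGAATG on both strands (CATTCC on the printed strand) in the 250 bases before each start site, and matches are in capitals. Sequences run 5′ to 3′ on the gene's strand and stop at the start site.
Ankrd1, chr19:36119845-36120094, minus strand: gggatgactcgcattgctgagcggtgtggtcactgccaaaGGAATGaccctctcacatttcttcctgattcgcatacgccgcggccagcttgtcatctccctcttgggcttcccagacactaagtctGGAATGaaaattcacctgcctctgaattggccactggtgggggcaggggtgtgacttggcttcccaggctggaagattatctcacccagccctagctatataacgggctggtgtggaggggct
Cyr61 (now Ccn1), chr3:145649986-145650235, minus strand: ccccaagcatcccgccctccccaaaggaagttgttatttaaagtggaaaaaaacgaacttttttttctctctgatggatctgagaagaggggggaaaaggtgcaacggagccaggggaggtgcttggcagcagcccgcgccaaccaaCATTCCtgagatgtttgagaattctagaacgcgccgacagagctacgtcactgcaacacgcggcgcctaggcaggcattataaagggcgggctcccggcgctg
The Ankrd1 window holds 2 matches, which begin 210 and 123 bases before the start. The Cyr61 window holds 1, which begins 103 bases before the start. A match is a description of letters and shows no binding.

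Of the 10 members, 7 had a promoter window, and 5 of those 7 (Yap1, Wwtr1, Tead3, Cyr61 and Amotl2) held at least 1 match. Amotl1 and Lats2 held none. Of 18 further YAP target genes, 12 had a window and 4 held a match (Ankrd1, Axl, Crim1 and Ptpn14). These counts are of genes with a match in any of their windows, of which some genes have several. Counted the same way, 14.4% of all 27025 genes in the table held the motif, and 12.6% of the 32851 single windows did. Tgfb2, Nt5e and F3, which rose, held no match in these 250 bases, and Axl, Crim1 and Ptpn14, which held one, did not pass the test.

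Values are given as CPM, a gene's count relative to a library total that was scaled by TMM factors, and differences as log2 fold changes of knockout against heterozygote from edgeR's quasi-likelihood test. Adjustment of p ran over the whole set of 11870 tested genes, and the threshold for a call was 0.05. By this rule 18.9% of all tested genes were called, 10.2% as higher (1216) and 8.64% as lower (1025). With library totals alone as the scaling the split was 1684 higher and 760 lower. Among the tested members 1 of 9 was called higher and 0 lower, a share near that of all genes. The median log2 fold change of the 9 was 0.18, against 0.0023 over all tested genes.

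Library totals ran from 8086656 to 25237696 counts. Actn2 itself was lower in every knockout (1145 to 1286 CPM) than in any heterozygote (2677 to 3474 CPM). Cardiomyocyte markers were abundant in all libraries, with 8 genes summing to 93811 to 122536 CPM. Of these 8, 0 were called higher and 1 lower, against 10.2% and 8.64% of all tested genes. That gene, Tnni3, went from a mean of 6811 to 4717 CPM (log2 fold change -0.53, edgeR adjusted p 0.00165). Markers of other cells were also present: 10 endothelial genes summed to 520 to 824 CPM in heterozygotes and 339 to 600 CPM in knockouts, 9 fibroblast genes to 320 to 651 CPM over all samples, and 7 mural genes to 473 to 698 CPM. Abcc9 alone was at 259 to 446 CPM and was the largest part of the mural sum in every sample, so that sum rests largely on 1 gene. All 10 endothelial, 9 fibroblast and 7 mural genes had at least 1 count in every sample. In the immune list, 7 genes summed to 11.97 to 34.9 CPM in heterozygotes, highest in heterozygote 3, and to 7.70 to 10.5 CPM in knockouts. A set of 4 Y-linked genes was at 0 in heterozygotes 3 and 5 and near 0 in knockout 5, and summed to 175 to 277 CPM in the other 7 samples.

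**Figure D1:**
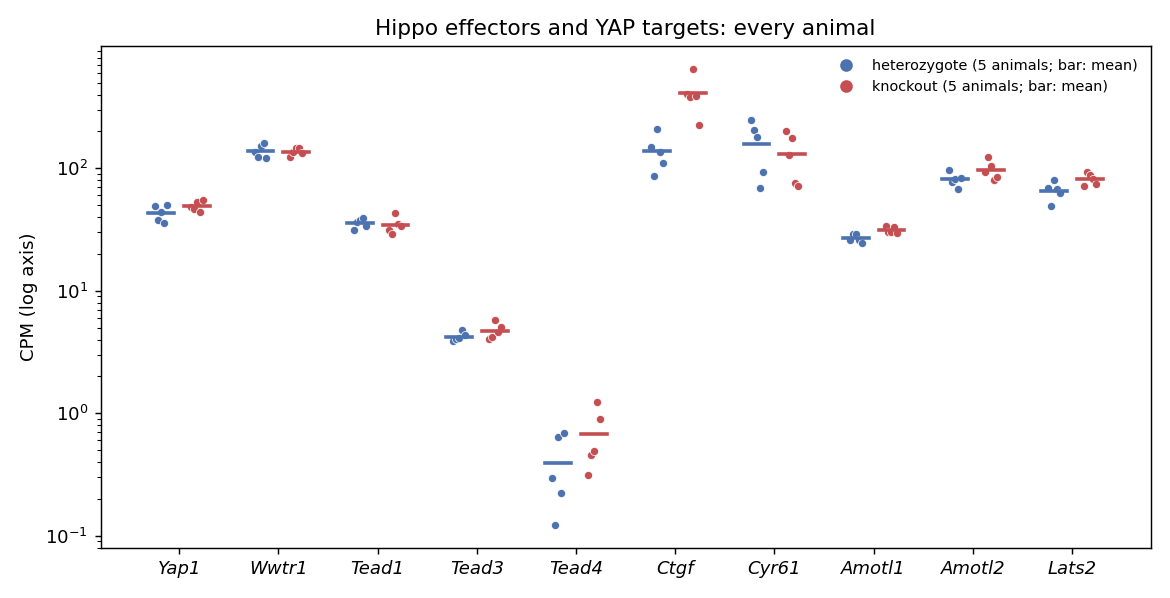
Normalised counts (CPM, log axis) of the 10 members in each of 5 heterozygote (blue) and 5 knockout (red) animals, with bars at the means. The knockout points lie wholly above the heterozygote points for Ctgf and, by a small margin, for Amotl1.

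The co-activators were examined first. Yap1 (chromosome 9, 7932001 to 8004596 of mm10) encodes YAP. It was at 49.6, 37.6, 43.7, 36.1 and 50.3 CPM in heterozygotes 1 to 5 and at 48.4, 46.7, 53.4, 43.9 and 54.6 CPM in knockouts 1 to 5. The groups overlapped, although the lowest 2 of all 10 samples were heterozygotes. The log2 fold change was 0.18 (SE 0.113, 95% interval -0.06 to 0.42, edgeR adjusted p 0.286), so the interval does not reach a 2-fold change in either direction. With the mean of 10 endothelial markers as a covariate its sign changed (-0.05).

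Wwtr1 (chromosome 3, 57455644 to 57575910) encodes TAZ, the close relative of YAP. It was at 137, 125, 151, 160 and 122 CPM in heterozygotes 1 to 5 and at 123, 135, 145, 145 and 133 CPM in knockouts 1 to 5. The knockout values lay wholly inside the range of the heterozygotes. The log2 fold change was -0.03 (SE 0.0985, 95% interval -0.24 to 0.18, edgeR adjusted p 0.882), and its sign changed with library totals alone (0.05) and with the endothelial covariate (0.13).

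Per kilobase of counted length, the scale on which different genes can be compared, Wwtr1 stood above Yap1 in every sample. Wwtr1 made up 73.5% ± 4.41 of the summed Yap1 and Wwtr1 level in heterozygotes and 70.6% ± 2.45 in knockouts (SD, n = 5). The ranges were 68.0 to 79.5% and 68.0 to 74.2%, and overlapped. The messenger RNA of TAZ was therefore the more abundant of the pair in both genotypes.

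TEAD factors carry YAP and TAZ to DNA. Tead1 (chromosome 7, 112679320 to 112906805), the main TEAD gene of heart muscle, was at 31.5, 36.6, 37.9, 39.1 and 33.9 CPM in heterozygotes 1 to 5 and at 31.3, 29.1, 43.3, 35.1 and 33.6 CPM in knockouts 1 to 5. Both the highest and the lowest value were from knockouts. The log2 fold change was -0.05 (SE 0.116, 95% interval -0.30 to 0.20, edgeR adjusted p 0.802). Its sign changed with library totals alone (0.03), with voom (0.01) and with the endothelial covariate (0.03).

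Tead3 (chromosome 17, 28331673 to 28350805) was at 3.91, 4.05, 4.10, 4.77 and 4.33 CPM in heterozygotes 1 to 5 and at 4.06, 4.20, 5.76, 4.62 and 5.04 CPM in knockouts 1 to 5, with overlapping groups (log2 fold change 0.17, SE 0.178, 95% interval -0.21 to 0.55, edgeR adjusted p 0.568). Tead4 (chromosome 6, 128227143 to 128300813) had 7, 1, 5, 2 and 7 counts in heterozygotes 1 to 5 and 3, 6, 5, 12 and 16 counts in knockouts 1 to 5. It was below the filter and has no test here, and it was not called without the filter or with DESeq2. At counts this low, the lack of a call does not show that the levels were equal. A level of 3 counts corresponds to 0.126 to 0.384 CPM in these libraries, and the group means of Tead4 were 0.394 ± 0.255 CPM in heterozygotes and 0.679 ± 0.380 CPM in knockouts (SD, n = 5).

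Tead2, the fourth TEAD gene and not one of the 10 members, was at 1.60 to 5.55 CPM in heterozygotes and 1.98 to 4.88 CPM in knockouts (log2 fold change 0.07, edgeR adjusted p 0.910). Per kilobase, Tead1 held 53.5% ± 5.81 of the summed level of the 4 TEAD genes in heterozygotes and 50.0% ± 4.46 in knockouts (SD, n = 5). Tead2 held 23.7% ± 6.82 and 24.1% ± 4.80, Tead3 20.9% ± 1.64 and 22.8% ± 1.85, and Tead4 1.88% ± 1.203 and 3.10% ± 1.49. All 4 shares overlapped between the genotypes. Without division by length Tead1, whose counted length of 9962 bases is the longest of the members, would take 81.6% and 79.3%.

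The inhibitors among the members lay slightly higher in knockouts without passing the test. Amotl1 (chromosome 9, 14541967 to 14615000), an angiomotin that binds YAP at cell junctions and actin filaments, was at 25.8, 28.9, 29.1, 26.2 and 24.5 CPM in heterozygotes 1 to 5 and at 33.7, 30.3, 30.3, 33.1 and 29.4 CPM in knockouts 1 to 5. Every knockout lay above every heterozygote. On the log2 scale the difference was 0.22 (SE 0.0947, 95% interval 0.02 to 0.43, edgeR adjusted p 0.117). Groups of 5 that do not overlap were found in 14.7% of all tested genes, with the knockout higher in 8.41% and the knockout lower in 6.32%. Among the 9 tested members 2 did not overlap, Ctgf and Amotl1, both with the knockout higher. With library totals alone Amotl1 was called (adjusted p 0.0321).

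Amotl2 (chromosome 9, 102717804 to 102733417), a second angiomotin and a YAP target, was at 97.8, 77.0, 81.8, 67.3 and 82.6 CPM in heterozygotes 1 to 5 and at 93.2, 123, 104, 80.5 and 85.7 CPM in knockouts 1 to 5. The groups overlapped (log2 fold change 0.26, SE 0.127, 95% interval -0.02 to 0.53, edgeR adjusted p 0.178). Per kilobase it was the main angiomotin of the pair, with 86.4% ± 1.89 of the summed Amotl1 and Amotl2 level in heterozygotes and 86.6% ± 2.25 in knockouts (SD, n = 5).

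Lats2 (chromosome 14, 57689662 to 57746123) encodes the kinase that phosphorylates YAP and TAZ and is also a YAP target. It was at 69.0, 49.1, 79.8, 68.2 and 63.1 CPM in heterozygotes 1 to 5 and at 71.1, 93.3, 88.4, 81.2 and 74.0 CPM in knockouts 1 to 5. Heterozygote 3 lay among the knockouts and the other 4 heterozygotes lay below all 5 knockouts. The log2 fold change was 0.31 (SE 0.124, 95% interval 0.04 to 0.57, edgeR adjusted p 0.0985). Lats2 was called without heterozygote 3 (0.39, adjusted p 0.0485) and with library totals alone (0.39, adjusted p 0.0482).

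Ctgf and Cyr61 encode secreted matricellular proteins of the CCN family and are the most used readouts of YAP and TAZ activity. Ctgf (now Ccn2; chromosome 10, 24595442 to 24598682) was at 149, 85.8, 211, 135 and 111 CPM in heterozygotes 1 to 5. In knockouts 1 to 5 it was at 400, 380, 650, 387 and 227 CPM. The highest heterozygote, number 3, stayed just below the lowest knockout, number 5, and knockout 3 stood highest of all. Means were 138 ± 47.2 CPM in heterozygotes and 409 ± 152 CPM in knockouts (SD over 5 animals).

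On the log2 scale Ctgf differed by 1.56 (SE 0.259, 95% interval 1.01 to 2.12, edgeR adjusted p 0.000833). The call held with any 1 of the 10 animals removed (1.33 to 1.76) and under the 10 other settings (1.52 to 1.83). The lowest estimate, 1.33, came without knockout 3. Knockout 5, which had the least Ctgf of its group, and heterozygote 3, which had the most, are among the 3 samples with Y-linked genes at or near 0, and with Y-linked expression as a covariate the difference was 1.52 (adjusted p 0.00267).

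Cyr61 (now Ccn1; chromosome 3, 145646971 to 145649985) was at 246, 205, 179, 69.3 and 92.8 CPM in heterozygotes 1 to 5 and at 203, 128, 177, 76.3 and 71.7 CPM in knockouts 1 to 5. Both groups spread over more than a 2-fold range and overlapped almost wholly. Cyr61 had a log2 fold change of -0.28 (SE 0.346, 95% interval -1.02 to 0.47, edgeR adjusted p 0.635). This interval is the widest of the tested members. It includes a fall to about 0.5 of the heterozygote level, no change, and a rise up to a log2 fold change of 0.47. The difference between the changes of Ctgf and Cyr61 was not tested.

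**Figure D2:**
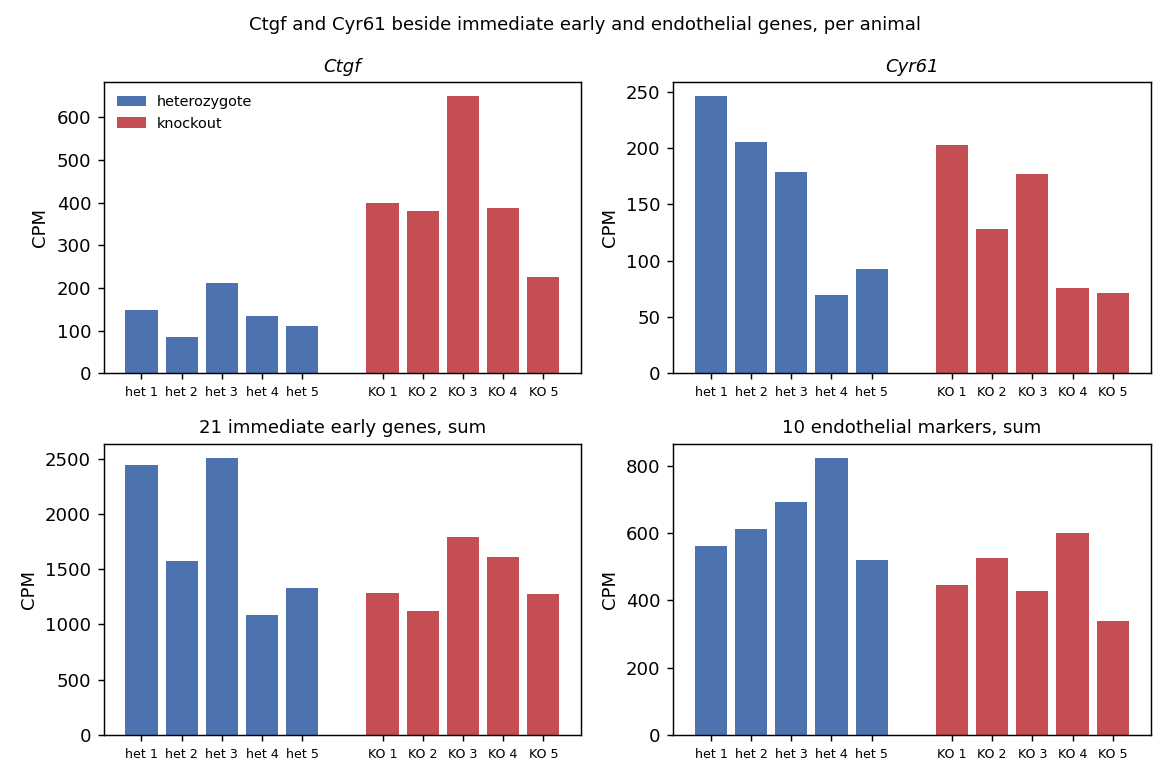
Ctgf and Cyr61 in each animal (CPM) beside the summed CPM of 21 immediate early genes and of 10 endothelial markers; blue bars are heterozygotes 1 to 5 and red bars knockouts 1 to 5. Ctgf is higher in all 5 knockouts, whereas the heights of the other panels overlap between the genotypes.

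Both genes are also immediate early genes, which respond within minutes to serum, stretch or cell isolation. A list of 21 such genes summed to 2447, 1572, 2510, 1086 and 1332 CPM in heterozygotes 1 to 5 and to 1280, 1123, 1792, 1606 and 1277 CPM in knockouts 1 to 5. The sums overlapped, and heterozygotes 1, 2 and 3, which had the most Cyr61, had the highest sums of their group. In knockouts the order differed: knockout 4 had the second highest sum with 76.3 CPM of Cyr61, and knockout 2 had the lowest sum with 128 CPM. Of the 18 tested genes of this list 0 were called higher and 7 lower in knockouts (Socs3, Klf4, Klf2, Junb, Dusp1, Ier2 and Zfp36), with a median log2 fold change of -0.66. Over all tested genes 10.2% were called higher and 8.64% lower. The part of this list in the values of Ctgf and Cyr61 was not tested.

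Endothelial cells and fibroblasts also express Ctgf and Cyr61. The endothelial list had 0 of 10 genes called higher and 2 lower (Egfl7 and Cldn5), with a median log2 fold change of -0.43, and the fibroblast list had 0 of 8 tested genes called in either direction (median -0.17). The mural list had 1 of 7 genes called higher and 0 lower (median -0.34). That gene, Cspg4, went from 37.0 to 132 CPM (log2 fold change 1.84, edgeR adjusted p 1.23e-06). Over all tested genes 10.2% were called higher and 8.64% lower. In bulk RNA, fewer cells of a type and less RNA per cell cannot be told apart. With the endothelial covariate, the difference of Ctgf was 1.83 (edgeR adjusted p 0.00623) and that of Cyr61 -0.73 (adjusted p 0.416).

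**Figure D3:**
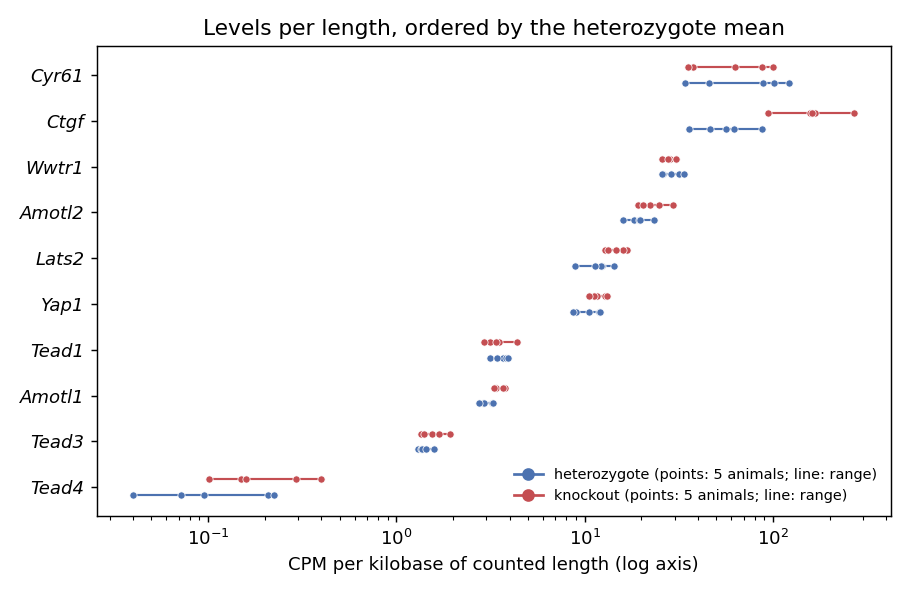
Level of each member per kilobase of counted length (CPM per kilobase, log axis) in 5 heterozygotes (blue) and 5 knockouts (red); points are animals and lines their range. Ctgf and Cyr61 stand at the top in both genotypes and Tead4 at the bottom.

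Ordered by mean CPM per kilobase, heterozygotes had Cyr61 first (78.1 ± 37.0), then Ctgf (57.6 ± 19.7), Wwtr1 (29.1 ± 3.45), Amotl2 (19.4 ± 2.64), Lats2 (11.9 ± 2.01) and Yap1 (10.4 ± 1.58; SD, n = 5). Tead1 (3.59 ± 0.309), Amotl1 (3.01 ± 0.224), Tead3 (1.41 ± 0.113) and Tead4 (0.128 ± 0.0830) followed. The neighbours Cyr61 and Ctgf, Lats2 and Yap1, and Tead1 and Amotl1 overlapped over the 5 heterozygotes, and each of the other neighbours was apart. In knockouts Ctgf came first (170 ± 63.4 CPM per kilobase) and Cyr61 second (64.7 ± 29.0), with overlapping ranges. Amotl1 and Tead1 also traded places there, by less than their spread (3.51 ± 0.214 and 3.46 ± 0.545 CPM per kilobase). Neighbours that overlapped in knockouts were Ctgf and Cyr61, Wwtr1 and Amotl2, Lats2 and Yap1, and Amotl1 and Tead1.

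Beyond the 10 members, genes that act on YAP and TAZ were read from the same fit. Of 20 tested kinases and upstream regulators, 6 were called higher and 0 lower (median log2 fold change 0.23, against 0.0023 for all tested genes, of which 10.2% were called higher). The largest rise was that of Frmd6, which encodes a membrane-linked scaffold of the pathway (chromosome 12, 70825514 to 70902234). It was at 74.5, 47.2, 63.1, 40.7 and 69.7 CPM in heterozygotes 1 to 5 and at 129, 143, 116, 98.7 and 74.7 CPM in knockouts 1 to 5. Knockout 5 was only just above heterozygote 1, and the other 4 knockouts were well above every heterozygote. Frmd6 rose by 0.92 on the log2 scale (SE 0.188, edgeR adjusted p 0.00351).

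Jub, the older symbol of Ajuba, encodes a LIM protein of cell junctions that holds back the LATS kinases. Its mean was 14.0 ± 1.06 CPM in heterozygotes and 24.3 ± 5.67 CPM in knockouts (SD, n = 5), a difference of 0.79 on the log2 scale (edgeR adjusted p 0.00293). Taok3, a kinase that acts on the upstream kinases, went from 7.94 ± 1.79 to 13.5 ± 2.23 CPM (0.77, adjusted p 0.00895). Mob1b, a co-activator of the LATS kinases, went from 26.8 ± 6.70 to 41.7 ± 5.45 CPM (0.63, adjusted p 0.0154).

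Stk4, one of the pair of upstream kinases, rose by 0.38 on the log2 scale, with means of 33.0 ± 3.20 and 42.9 ± 4.33 CPM (SD, n = 5; edgeR adjusted p 0.0183). Wwc2, a relative of the scaffold KIBRA, rose from 81.8 ± 4.88 to 104 ± 7.28 CPM (0.35, adjusted p 0.00896). The groups did not overlap for any of these 6 genes, which were picked because they were called. Of the 20 tested genes of the list, 6 had every knockout above every heterozygote, against 8.41% of all tested genes. Stk3, Sav1, Lats1 and Nf2, other core parts of the chain, did not pass (0.25, -0.34, 0.14 and 0.13, adjusted p 0.248, 0.246, 0.604 and 0.486). Amot, the largest difference among those not called, was at 1.79 to 4.03 CPM in heterozygotes and 1.60 to 5.85 CPM in knockouts (0.70, adjusted p 0.197), and with the endothelial covariate its log2 fold change was -0.00053.

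With the endothelial covariate, the calls of Frmd6, Jub, Mob1b and Stk4 were lost (edgeR adjusted p 0.0624, 0.0629, 0.0788 and 0.141), while their log2 fold changes were 0.81, 0.71, 0.67 and 0.37. Those of Taok3 and Wwc2 were still called. The covariate itself differed with genotype (median log2 fold change of its markers -0.43), so the 2 cannot be fully told apart in this fit. Stk4 also lost its call without knockout 2 (0.32, adjusted p 0.0527). Summed over the 21 genes of the list, the level was 693 to 740 CPM in heterozygotes and 827 to 973 CPM in knockouts, without overlap. This sum includes the called genes, and how often sums of other genes lie apart was not tested.

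**Figure D4:**
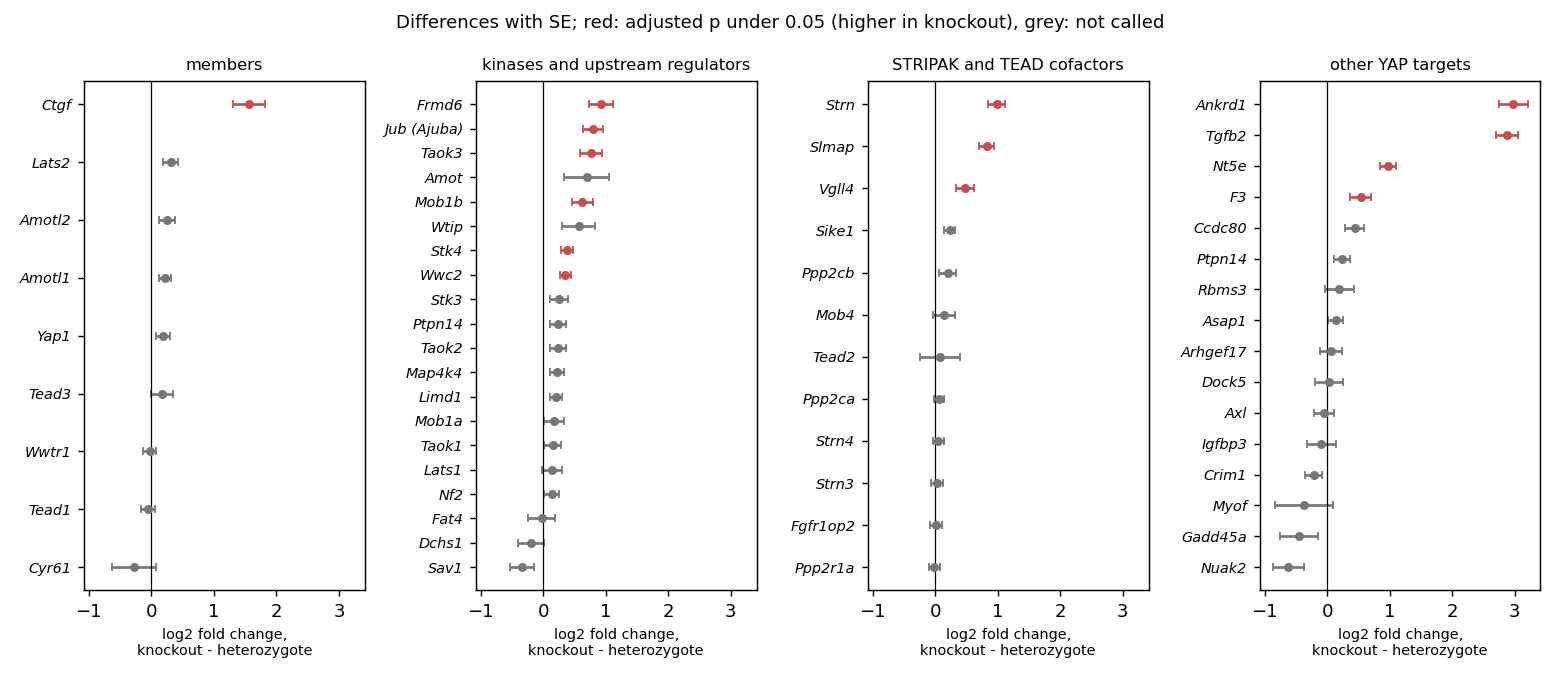
Log2 fold change (knockout against heterozygote) with its SE for the tested genes of 4 lists; red points were called higher at an adjusted p below 0.05 and grey points were not called. Ctgf stands alone among the members, and every called gene in the other 3 lists lies to the right of 0.

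A second list held subunits of STRIPAK, the phosphatase complex that switches the upstream kinases off, and the TEAD cofactors. It also held Tead2, itself a TEAD gene. Of 12 tested genes 3 were called higher and 0 lower (median log2 fold change 0.11), against 10.2% and 8.64% of all tested genes. One of the 3, Vgll4, lost its call in 7 of the 20 alternative fits. Strn, which encodes striatin, the scaffold of the complex (chromosome 17, 78653964 to 78736560), was at 53.3, 30.8, 45.4, 34.0 and 43.5 CPM in heterozygotes 1 to 5 and at 78.1, 94.3, 80.9, 73.9 and 82.5 CPM in knockouts 1 to 5. The lowest knockout lay well above the highest heterozygote. The fold was 1.97 (log2 fold change 0.98, SE 0.137, edgeR adjusted p 0.000216).

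Slmap, a membrane-anchored STRIPAK subunit that in the heart also lies at the sarcolemma and the tubules (chromosome 14, 26413175 to 26533740), was at 309, 230, 366, 347 and 311 CPM in heterozygotes 1 to 5. In knockouts 1 to 5 it was at 534, 569, 616, 483 and 568 CPM. The groups were far apart (log2 fold change 0.82, SE 0.119, edgeR adjusted p 0.000276). Strn and Slmap were called under every one of the 20 alternative fits. The paralogs Strn3 and Strn4 and the phosphatase genes Ppp2ca and Ppp2r1a had log2 fold changes of 0.03, 0.05, 0.06 and -0.01 and did not pass (adjusted p 0.858, 0.758, 0.633 and 0.941).

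Vgll4, which competes with YAP for TEAD, was called with overlapping groups. Vgll4 ran from 10.4 to 14.99 CPM in heterozygotes and from 14.97 to 22.05 CPM in knockouts (log2 fold change 0.48, edgeR adjusted p 0.0321). Leaving out single animals ended its call in 5 of 10 fits (heterozygotes 1, 2 and 3 and knockouts 3 and 5), and so did the endothelial covariate (adjusted p 0.199) and the replicate block (adjusted p 0.0569). Sike1, the largest difference not called, had a log2 fold change of 0.23 (edgeR adjusted p 0.0718) and was called without heterozygote 1 (adjusted p 0.0439). Vgll1, Vgll2 and Vgll3 were below the filter.

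**Figure D5:**
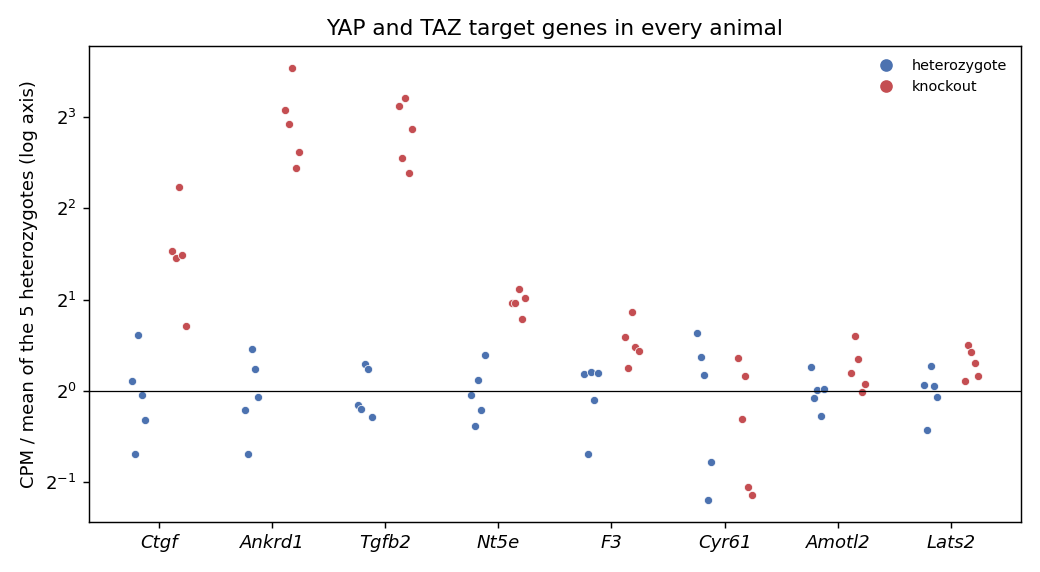
CPM of 8 YAP and TAZ target genes in each animal divided by the mean of the 5 heterozygotes (log axis); blue points are heterozygotes and red points knockouts. Ankrd1 and Tgfb2 moved furthest, Ctgf, Nt5e and F3 less, and the points of Cyr61, Amotl2 and Lats2 overlap between the genotypes.

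The last list was a 22-gene signature of YAP and TAZ targets derived in cancer, of which Ctgf, Cyr61, Amotl2 and Lats2 are members here and 18 are not. Of those 18 genes 16 were tested, 4 were called higher and 0 lower, against 10.2% and 8.64% of all tested genes, and the median log2 fold change was 0.09. Foxf2 and Fjx1 were below the filter. Ptpn14, not called, is counted both here and among the kinases and upstream regulators. Ankrd1, which encodes a stretch-responsive ankyrin repeat protein of the sarcomere, was 7.85-fold higher, and its knockout values ran from 2891 to 6215 CPM against 331 to 732 CPM in heterozygotes.

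Tgfb2 encodes the secreted growth factor TGF-beta 2 (chromosome 1, 186623186 to 186705992). It was at 12.1, 11.8, 16.7, 15.98 and 11.1 CPM in heterozygotes 1 to 5 and at 118, 79.2, 125, 71.0 and 99.0 CPM in knockouts 1 to 5. Every knockout was more than 4 times above the highest heterozygote. The fold was 7.30 (log2 fold change 2.87, SE 0.177, edgeR adjusted p 2.62e-07).

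Nt5e, which encodes the ecto-nucleotidase CD73 (chromosome 9, 88327609 to 88372089), was at 32.7, 25.7, 36.5, 29.0 and 44.0 CPM in heterozygotes 1 to 5 and at 65.4, 65.7, 72.6, 58.2 and 67.8 CPM in knockouts 1 to 5, again without overlap (log2 fold change 0.97, SE 0.130, edgeR adjusted p 0.000152). F3, the tissue factor that starts coagulation (chromosome 3, 121723537 to 121735052), was at 14.5 to 27.0 CPM in heterozygotes and 27.9 to 42.5 CPM in knockouts (0.53, adjusted p 0.0361). The F3 groups were only just apart, and removing heterozygote 4 or knockout 1, 3 or 4 ended the call. So did the endothelial covariate (adjusted p 0.258).

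The remaining 12 tested targets did not pass. Ccdc80 (0.44, edgeR adjusted p 0.0612) and Axl (-0.05, adjusted p 0.853) lie within that group. Nuak2, a kinase of the AMPK family and the largest difference not called, was at 3.44 to 4.36 CPM in heterozygotes and 1.64 to 3.44 CPM in knockouts, where knockout 2 came just under the lowest heterozygote (-0.62, adjusted p 0.0985). Gadd45a (-0.46, adjusted p 0.328) shares exon sequence with E230016M11Rik in the annotation used for counting, so its counts are uncertain. None of the 10 members shares exons with another gene there.

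The genes whose profile over the 10 samples lay closest to that of Ctgf were Wnt5b, Myh10 and Clic5. Likeness was measured as the root-mean-square difference between the log2 CPM of the 2 genes, each centred on its own mean over the 10 samples. It was 0.28 for Wnt5b, a Wnt ligand gene, 0.34 for Myh10, the gene of non-muscle myosin heavy chain IIB, and 0.35 for Clic5, which encodes an actin-associated chloride channel protein. All 3 were higher in knockouts (log2 fold changes 1.74, 1.59 and 1.54, edgeR adjusted p 1.68e-05, 8.79e-07 and 1.86e-06). Since the measure includes the difference between genotypes, genes with a change of similar size come first.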

How the data were processed

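Poly(A) RNA of sorted cardiomyocytes from 10 mice was sequenced from SMART-Seq cDNA and Nextera XT libraries, per the labels' protocols. The deposited counts are whole reads per gene, which the authors made with featureCounts 1.5.1 on the UCSC annotation of mm10 with default settings, per the file headers: strand was not used and multiply mapped reads were left out. The submitters' processing notes name CASAVA 1.8, STAR 2.5.3a and Subread 1.5.2, so the counter's version differs between the sources. The table also holds, per the file headers, the counted length of each gene, another deposited value, used for levels per kilobase. Another 4 count columns match no sample of this series and were not used.

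Genes were filtered with edgeR's filterByExpr (minimum count 10, minimum total 15), scaled with TMM and tested over 11870 genes with edgeR 4.0.16's quasi-likelihood F test in R 4.3.3, without covariates, with Benjamini-Hochberg adjustment. The SE is the log2 fold change over the square root of F, and 95% intervals use it with the test's degrees of freedom, unadjusted. Log2 CPM adds a prior count of 1. Alternatives used DESeq2 1.42.0 and limma 3.58.1. The code was tested on simulated data. Replicates differed by more than counting noise (chi-square per degree of freedom 10.8 to 37.5). The smallest share that depth can show, 3 counts, was 1.19e-05% to 3.71e-05% of a library, for counting error only.

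Named genes were the 10 members, each called gene of the 3 other lists and the largest uncalled difference in each. Further named genes were picked with their values in view. One gene of the lists is not reported here and is left out of their counts. The members and lists were chosen with earlier results of these data known. Promoter sequences are from RefSeq.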

Additional observations from a re-analysis of the deposited data

Results flagged for a closer look

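In 58 groups of 5 values (a named gene in log2 CPM, the total count, or a list sum, in 1 genotype), 2 had a sample set apart from the other 4 by more than a critical share of the range, where chance alone gives about 2.9.

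Amot was at 2.03 log2 CPM in heterozygote 1 against 1.22 in the next highest heterozygote, a gap of 0.742 of the range. The total count was 25237696 in heterozygote 1 against 10309615 in the next deepest heterozygote, a gap of 0.870 of the range. None of the 10 members had such a sample.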

How the results depend on the processing

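Ctgf kept its call and direction in all 20 alternative fits. Members called higher numbered 3 with library totals alone (Ctgf, Amotl1 and Lats2) and 1 to 2 when single animals were left out. With the endothelial covariate, 4 of the 32 other Hippo genes were called higher, and over all genes 515 were called higher and 499 lower in place of 1216 and 1025. That covariate was itself lower in knockouts on average, so its part and that of genotype cannot be fully told apart. Among the other YAP targets, 0 to 1 were called lower when single animals were left out, 1 of them without heterozygote 4. Signs reversed with library totals alone for Wwtr1 (0.052) and Tead1 (0.027), with voom for Tead1 (0.013), and with the endothelial covariate for Wwtr1 (0.13), Tead1 (0.026), Yap1 (-0.051, from 0.18) and Amot (-0.00053, from 0.70). Without single animals Wwtr1 ran from -0.069 to 0.028 and Tead1 from -0.15 to 0.0030. The cause was not tested. With the replicate number as a block, 2182 genes were called and Ctgf was at 1.55 (edgeR adjusted p 1.86e-05), while the call of Vgll4 was lost (adjusted p 0.0569). Deviations from the group means correlated at -0.0568 to 0.189 between same-numbered samples, so the numbers are not shown to pair them. Heterozygotes 4 and 5 correlated best with the knockout of the same number, and heterozygotes 1, 2 and 3 with another. Tead4 and Wwc1 did not pass the filter on low counts and were tested only without it and with DESeq2.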

Other observations

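Cyr61 varied with the sample number in both genotypes, a pattern noticed in the values and not tested. Heterozygotes 4 and 5 (69.3 and 92.8 CPM) and knockouts 4 and 5 (76.3 and 71.7 CPM) were the 4 lowest of the 10 samples, and the other 6 lay between 128 and 246 CPM. The labels do not say what the numbers stand for. With the replicate number as a block, the log2 fold change of Cyr61 was -0.24 (edgeR adjusted p 0.202), against -0.28 (adjusted p 0.635) without it. Ctgf did not follow the same split, with 135 and 111 CPM in heterozygotes 4 and 5 between 85.8 and 211 CPM in the other 3. In knockouts it was at 387 and 227 CPM in numbers 4 and 5 and between 380 and 650 CPM in the other 3.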
